A study of Mus musculus with 12 samples.

Results

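The miR-125 seed family was followed in the mouse cerebral cortex through its 4 precursors with a row in the deposited table, mmu-mir-125b-2 and mmu-mir-125b-1, mmu-mir-125a, and mmu-mir-351, out of 589 precursors in all. They were chosen by name, as the precursors whose 5p mature miRNA carries the miR-125 seed, and not by their values. Earlier results of these data were known when they were chosen. A precursor is the hairpin from which a miRNA is cut, and the table gives 1 normalised value per precursor and library.

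Small RNA was sequenced from the cortex of female C57BL/6J mice that were 7 weeks old at the start and then drank water or water with 10% (v/v) ethanol for 5 months. Wild-type mice on water (WT) and on ethanol (WT + EtOH) and mice without the gene of Toll-like receptor 4 on water (TLR4-KO) and on ethanol (TLR4-KO + EtOH) formed the 4 groups, the knockout being one of the whole animal. Each group had 11 treated mice, of which 9 went into 3 libraries, so that each of the 12 libraries was a pool of 3 mice and 36 mice were sequenced. The best RNA samples of each group were chosen for the pools. Replicate error here is the error between pools, as far as the normalised values show it, and p-values measure only that spread. The knockout could not be checked here, since small RNA libraries hold no Tlr4 mRNA. WT mice came from Harlan Ibérica and the knockout mice from S. Akira at Osaka University. Genotype and source of the mice therefore cannot be told apart.

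A miRNA guides its partner proteins to mRNAs mainly by its seed, the short stretch near its 5′ end, so that miRNAs with the same seed can bind many of the same mRNAs. miR-125 is the vertebrate counterpart of lin-4, the founding miRNA of the nematode, and is known as an abundant miRNA of neurons and glia with roles in neuronal differentiation and in the control of inflammatory signalling. Toll-like receptor 4 is the receptor for bacterial lipopolysaccharide on microglia and other innate immune cells, and its signalling activates NF-κB.

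The mature 5p sequences are shown because the seed is what defines the family. They were taken from RefSeq (GRCm38.p6), run 5′ to 3′, and have the seed, bases 2 to 8, in capitals.
mmu-miR-125b-5p: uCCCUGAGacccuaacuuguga
mmu-miR-125a-5p: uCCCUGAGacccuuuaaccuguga
mmu-miR-351-5p: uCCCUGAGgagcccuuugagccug
miR-125a-5p shares its first 13 bases with miR-125b-5p and is 3 single-base changes away from it. miR-351-5p shares only the first 8 bases with either and is 7 changes away from miR-125a-5p and 10 from miR-125b-5p. The hairpins mir-125b-1 and mir-125b-2 give the same 5p sequence, so a read of it cannot be told apart between the 2 copies, and the values of those rows depend on how such reads were shared out. Of 1679 mature miRNA names in the RefSeq table, 5 carry the seed CCCUGAG. The other two are miR-6394 and miR-6367, which were not analysed here.

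The opposite arms separate the 4 hairpins, and are shown because a precursor row does not say from which arm its reads came.
mmu-miR-125b-1-3p: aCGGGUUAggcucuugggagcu
mmu-miR-125b-2-3p: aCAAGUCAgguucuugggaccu
mmu-miR-125a-3p: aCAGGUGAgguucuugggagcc
mmu-miR-351-3p: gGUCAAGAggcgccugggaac
No 2 of these 3p arms share a seed, and the 3p arms of mir-125b-1 and mir-125b-2 differ by 5 single-base changes. Of the mature arms, only the 3p could assign a read to 1 of the 2 mir-125b copies.

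The 4 hairpins lie on 4 chromosomes (GENCODE M21, GRCm38). mir-125a, at chr17:17830812-17830879 on the plus strand, lies in an exon of a transcript of Spaca6, a gene of sperm and egg fusion, 367 bases from let-7e and 554 from mir-99b. mir-125b-1, at chr9:41581926-41582002 on the plus strand, lies within introns of the non-coding genes 3110039I08Rik and Gm49317 and overlaps an exon of Gm28119, with let-7a-2 and mir-100 at 45114 and 50421 bases. mir-125b-2, at chr16:77646273-77646343 on the plus strand, lies in an intron of the non-coding host gene Mir99ahg, with let-7c-1 and mir-99a at 46522 and 47272 bases. mir-351, at chrX:53053255-53053353 on the minus strand, has no annotated host gene and sits in a row of hairpins with mir-503 at 630 and mir-322 at 901 bases. The 3 miR-125 loci thus each lie beside a let-7 and a miR-99 or miR-100 hairpin, and mir-351 lies in another cluster.

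The deposited values have no unit. The scale is not given in the sources used here, but the 14 highest ranks hold the same 14 values in each of the 12 libraries. Lower down the values at a rank differ between libraries, by at most 0.569 at the ranks of mir-351 (56 to 81) and by up to 14.5 at rank 217. At ranks 1 to 14 a value therefore reports a rank within its library, and no difference of values can be read as a fold change. The table holds no counts, so the reads behind a value cannot be given from it. Directions hold for this deposited scale, and another normalisation of the same reads, not analysed here, may give other directions for these members. Of the 589 precursors, 265 were at 0 in all 12 libraries. They can neither be called nor separate groups, but the shares of all precursors given here count them. Per library 216 to 270 precursors were above 0. The WT libraries had 260–270 and those of WT + EtOH 229–270. On the knockout side there were 216–262 on water and 236–262 on ethanol. All 10 brain marker precursors (miR-124, miR-9, miR-128 and miR-138) were above 0 in all 12 libraries, and the liver marker mir-122 and the muscle markers mir-133a-1 and mir-133a-2 were at 0 in all. The summed value of the 4 red blood cell markers was 241–256 in WT libraries and 243–247 in those of WT + EtOH, and on the knockout side 231–244 on water and 219–241 on ethanol. Of these, mir-451a was called lower than in WT in the other 3 groups, with differences of −14.6, −17.6 and −20.9 in that order of groups, while mir-486b differed by 8.19, 8.76 and 6.18, not called, and mir-486a by −0.383, 0.486 and −0.847. The 3 leukocyte markers, of which mir-223 was at 0, summed to 112–115 in WT libraries and 105–130 in those of WT + EtOH, and to 109–115 and 105–114 in the knockouts without and with ethanol. Of these, mir-150 was called higher than in WT in WT + EtOH (7.41, adjusted p = 0.0444 from limma) and in TLR4-KO (9.28, adjusted p = 0.00958), and mir-142a differed by −2.81 and −11.8, not called. The 3 vessel markers summed to 192–204 and the 3 markers of choroid plexus and ciliated cells to 39.1–67.9 over all libraries. The vessel sum covers opposite directions. mir-143 averaged 84.0 in WT and 77.6 in WT + EtOH, and mir-126a 61.2 and 54.6, while mir-145a averaged 55.7 and 63.8. The means of both knockout groups lay on the same side of WT for each of them. The part of these cells in the results that follow was not tested.

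All 4 members were above 0 in all 12 libraries. mir-125b-2 had a mean of 114 ± 2.09 (SD over 12 libraries) and mir-125a one of 114 ± 2.08, ranks 3 and 4 among the means of the 589 precursors. mir-125b-1 followed at 108 ± 2.95, rank 8, and mir-351 at 61.7 ± 3.83, rank 62. The order is that of the deposited values, since whether these were divided by length is not given in the sources used here.

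The levels of mir-125b-2 and mir-125a were not separated. mir-125b-2 less mir-125a averaged 0.174 ± 0.876 and was above 0 in 7 of 12 libraries. mir-125b-2 exceeded its copy mir-125b-1 in 12 of 12 libraries, by 6.59 ± 2.63 (range 4.05 to 14.1), although both give the same 5p miRNA. mir-125a exceeded mir-125b-1 in 12 of 12 libraries by 6.41 ± 2.67. mir-125b-1 exceeded mir-351 in all 12 by 45.8 ± 3.48.

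mir-125b-2, one of the sources of miR-125b, had values of 111.3, 110.4 and 110.4 in the WT libraries. It had 115.5 in each of the 3 WT + EtOH libraries. In TLR4-KO it had 115.5, 114.9 and 114.9. In TLR4-KO + EtOH it had 115.5, 115.5 and 114.9. The 3 WT libraries were the lowest of the 12, and none of the other 9 overlapped them.

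mir-125a, the single source of miR-125a, had values of 109.3, 111.3 and 111.3 in WT. It had 114.9 in each WT + EtOH library. In TLR4-KO it had 114.9, 115.5 and 115.5. In the same mice with ethanol it had 114.9, 114.9 and 115.5. Again the WT libraries were below all others, and all 9 others stood at 114.9 or 115.5.

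mir-125b-1, the other source of miR-125b, had values of 106.4, 106.4 and 102.3 in WT. It had 101.4, 109.3 and 109.3 in WT + EtOH, where replicate 1 was the lowest of all 12 libraries. In TLR4-KO it had 110.4, 109.3 and 109.3. In the same mice with ethanol it had 107.8, 109.3 and 109.3. The WT and WT + EtOH libraries overlapped through that 1 library, and the 2 TLR4-KO groups lay above WT.

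mir-351, the more distant member of the family, had values of 58.8, 55.1 and 53.9 in WT. With ethanol the WT mice had 64.6, 62.3 and 64.6. TLR4-KO had 65.1, 63.0 and 65.6, and with ethanol 63.0, 62.3 and 62.3. The lowest of the 9 other libraries was above the highest WT library.

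**Figure D1:**
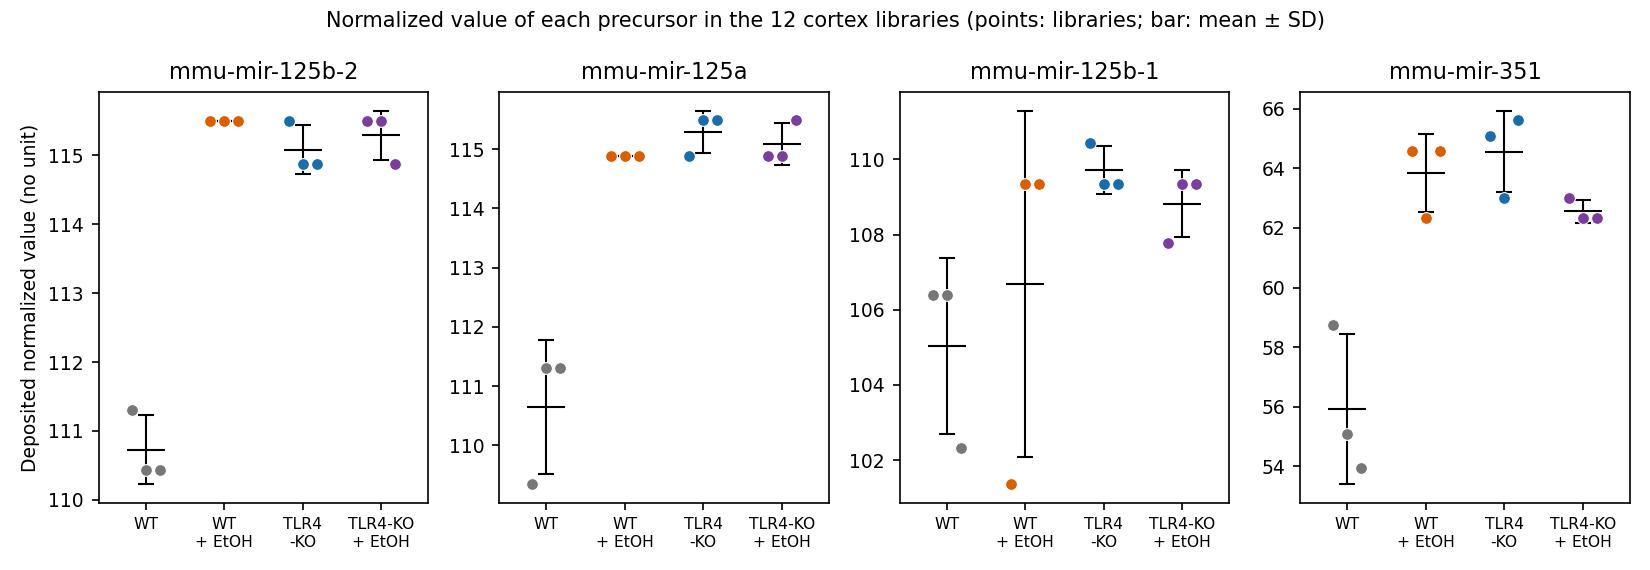
Deposited normalised value (no unit; each panel has its own axis, which does not start at 0) of the 4 precursors in the 12 libraries, with a point for each library and the mean ± SD of the 3 libraries per group. WT lies lowest for mir-125b-2, mir-125a and mir-351, and the WT + EtOH libraries of mir-125b-1 spread from 101.4 to 109.3.

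Alcohol in WT mice was the first question of the design. 3 of the 4 members rose in WT + EtOH against WT, where limma with Benjamini-Hochberg adjustment over all precursors called 10 of 589 (1.7%), 6 of them higher (1.02%). mir-125b-2 rose by 4.77 (standard error 0.285, limma adjusted p = 3.22e-05) and was higher in 3 of 3 libraries. The rise of mir-125a was 4.22 (standard error 0.497, limma adjusted p = 0.00437). mir-351 rose by 7.93 (standard error 1.27, limma adjusted p = 0.0212). By contrast mir-125b-1 differed by only 1.65 (standard error 2.12, adjusted p = 1 from limma), with a 95% interval of the difference from −3.21 to 6.50 that holds the differences of both mir-125b-2 and mir-125a. The median difference of the 190 precursors above 0 in all libraries was 0.306. Groups did not overlap for 3 members, and for 99 of all 589 precursors (16.8%). These 99 lie among the 324 precursors above 0 in any library.

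With 3 libraries against 3, a two-sided exact permutation test cannot give a p below 0.1, and it gave 0.1 for mir-125b-2, mir-125a and mir-351 and 0.6 for mir-125b-1. In the fit of the WT and WT + EtOH libraries alone, 1 member was called, mir-125b-2 (adjusted p = 0.00937 from limma), while mir-125a had 0.0922 and mir-351 0.143. Leaving out each library in turn kept mir-125b-2 and mir-125a called in 12 of 12 fits of all groups. mir-351 was called in 7 of 12, and its adjusted p in limma rose to 0.0928 and 0.0634 without WT replicate 2 or 3, to 0.0616 and 0.0761 without WT + EtOH replicate 1 or 3 and to 0.053 without TLR4-KO + EtOH replicate 2.

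The genotype comparison, in which the source of the mice also differed, gave the same 3 members. In TLR4-KO against WT, 15 of 589 precursors were called by limma (2.55%) and 9 were higher (1.53%), and 3 of the 4 members rose. mir-125b-2 rose by 4.36 (standard error 0.285, limma adjusted p = 6.69e-05), mir-125a by 4.64 (0.497, adjusted p = 0.00215 from limma) and mir-351 by 8.65 (1.27, adjusted p = 0.00948 from limma). mir-125b-1 differed by 4.67, a difference as large as that of the other 2 miR-125 precursors, but with a standard error of 2.12 and an adjusted p = 0.438 from limma. All 4 members had TLR4-KO values above every WT value, as did 15.6% of all precursors in one or the other direction.

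TLR4-KO + EtOH was likewise above WT. Of 589 precursors 11 passed in that comparison (1.87%), 6 of them higher (1.02%), and 3 of the 4 members were among these 6. mir-125b-2 rose by 4.56 (adjusted p = 4.6e-05 from limma), mir-125a by 4.43 (adjusted p = 0.00305 from limma) and mir-351 by 6.64 (adjusted p = 0.0413 from limma). mir-125b-1 differed by 3.79 (adjusted p = 0.713 from limma), with all 3 libraries above WT, so that the groups did not overlap for any of the 4 members, against 16.3% of all precursors. With 1 library left out, mir-351 was called in this comparison in 3 of 12 fits, those without WT replicate 1, WT + EtOH replicate 3 or TLR4-KO replicate 2, and its adjusted p in limma ran up to 0.19. The 3 comparisons share the same 3 WT libraries, so they are not separate observations of a low WT level.

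Between the other groups no member was called by limma, and 0 of 4 had an unadjusted p under 0.05 in either comparison. Alcohol in TLR4-KO mice (TLR4-KO + EtOH minus TLR4-KO, 2 of 589 or 0.34% called, 41 with an unadjusted p under 0.05) gave 0.207 for mir-125b-2, with a 95% interval from −0.447 to 0.860. It gave −0.207 for mir-125a (−1.34 to 0.932), −0.885 for mir-125b-1 (−5.74 to 3.97) and −2.005 for mir-351 (−4.92 to 0.913), all with an adjusted p = 1 from limma. The intervals of mir-125b-2, mir-125a and mir-351 leave out the size of their own difference between WT + EtOH and WT. For mir-125b-2 and mir-125a this says little. Both stood at ranks 3 and 4 in TLR4-KO, and the next value up, 124.0 at rank 2, belonged to mir-181a-2 in every library. A rise of the WT size was therefore not possible without passing mir-181a-2. Genotype under alcohol (TLR4-KO + EtOH minus WT + EtOH, 3 of 589 or 0.509% called, 27 with an unadjusted p under 0.05) gave −0.207 for mir-125b-2, 0.207 for mir-125a, 2.14 for mir-125b-1 and −1.28 for mir-351, each with an adjusted p = 1 from limma.

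The difference of the ethanol effects, that in TLR4-KO less that in WT, was tested as 1 contrast. Of 589 precursors limma called 7 (1.19%), 4 of them below 0 (0.679%), and 3 of these 4 were members. It was −4.56 for mir-125b-2 (standard error 0.403, adjusted p = 0.00073 from limma), −4.43 for mir-125a (0.702, adjusted p = 0.0280 from limma) and −9.93 for mir-351 (1.801, adjusted p = 0.0416 from limma). For mir-125b-1 it was −2.53 (2.997, adjusted p = 1 from limma). With 1 library left out, mir-125b-2 was called in 12 of 12 fits and mir-351 in 1 of 12, the fit without WT replicate 1. mir-125a was called in 6 of 12, and not without replicate 2 or 3 of WT + EtOH or of TLR4-KO or without replicate 1 or 2 of TLR4-KO + EtOH, where its adjusted p in limma ran up to 0.0894. The contrast holds the same 3 WT libraries. mir-125b-2 and mir-125a, at ranks 3 and 4 in TLR4-KO on water, had almost no room to rise with ethanol there. A contrast below 0 was therefore nearly set for both once they were higher in WT + EtOH than in WT.

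**Figure D2:**
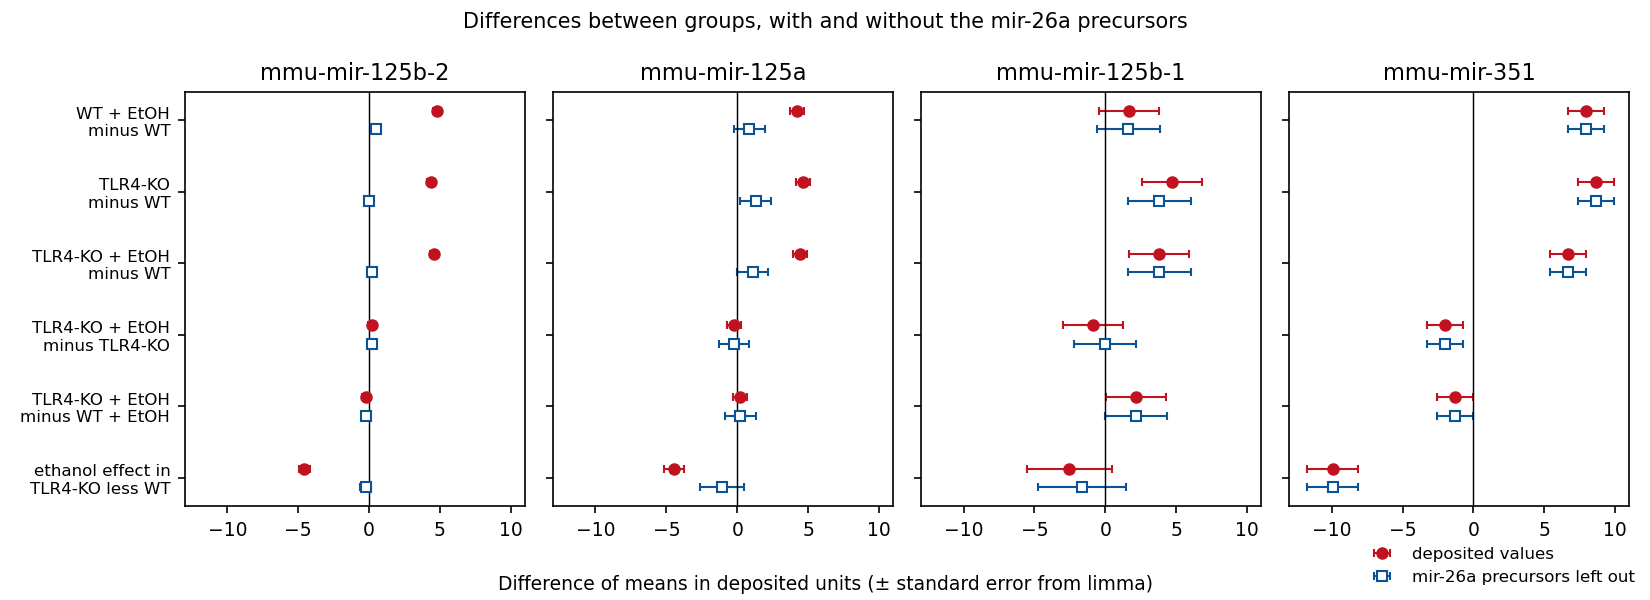
Difference of group means in deposited units (x axis, with the limma standard error) for the 4 precursors in the 6 contrasts, from the deposited values (filled circles) and after the mir-26a precursors were left out and the rest normalised again (open squares). The circles of mir-125b-2 and mir-125a in the contrasts with WT stand at 4.22 to 4.77 and the squares at 0 to 1.31, whereas the marks of mir-351 coincide. Both follow from the ranks, since the mir-26a hairpins rank above mir-351 in every library and above mir-125b-2 and mir-125a only in WT.

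The mir-125b-2 and mir-125a differences went with an exchange of ranks with the mir-26a hairpins, which give miR-26a-5p, another abundant miRNA of the brain. In each WT library mir-26a-1 had rank 3 and mir-26a-2 rank 4, while mir-125b-2 had ranks 5, 6 and 6 and mir-125a ranks 7, 5 and 5. In each of the other 9 libraries mir-125b-2 and mir-125a held ranks 3 and 4, and mir-26a-1 was at ranks 5 to 11. mir-125b-2 less mir-26a-1 averaged −4.77 in WT, where it was above 0 in 0 of 3 libraries, and it was above 0 in all 9 others.

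One step of the shared scale carries most of these differences. Ranks 3 and 4 have the values 115.5 and 114.9 in every library, rank 5 has 111.3, and the step from rank 4 to rank 5 is 3.57. A gain of 2.67 ranks by mir-125b-2 and of 1.67 by mir-125a from WT to WT + EtOH therefore gave differences of 4.77 and 4.22. The same steps set their spread, with an SD of 0 in WT + EtOH and of 0.358 in each TLR4-KO group. Their standard errors and limma p-values therefore depend on this scale. Whether the miR-125 hairpins rose or the mir-26a hairpins fell cannot be told apart from ranks. mir-26a-1 differed from WT by −6.12 in WT + EtOH (adjusted p = 0.283 from limma), by −7.19 in TLR4-KO (adjusted p = 0.187) and by −4.77 in TLR4-KO + EtOH (adjusted p = 0.563), without overlap in any of them but not called.

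**Figure D3:**
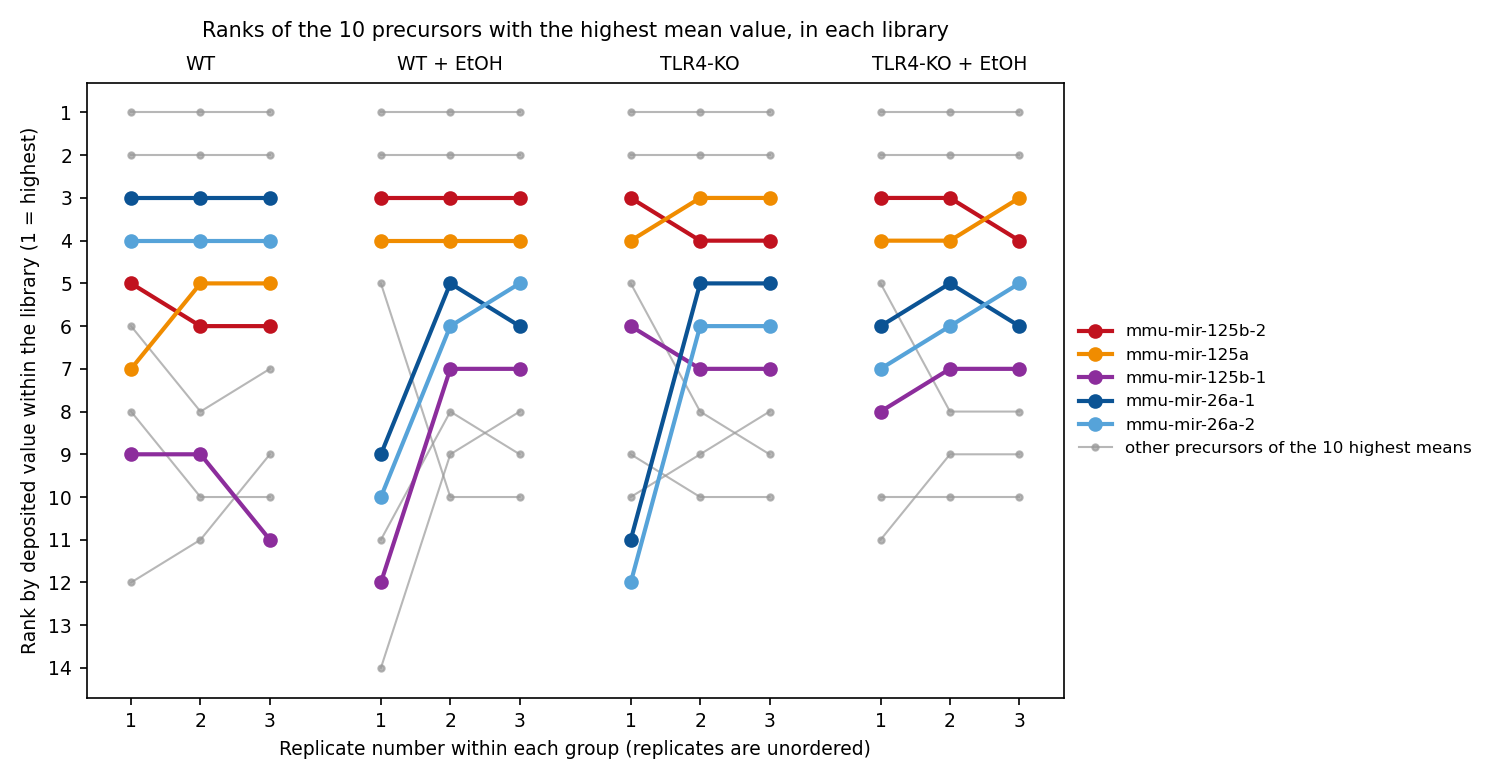
Rank within the library (y axis, 1 is the highest value) of the 10 precursors with the highest mean value, in each of the 12 libraries (x axis, by group and replicate, whose numbers have no order). The mir-26a hairpins hold ranks 3 and 4 in the 3 WT libraries and mir-125b-2 and mir-125a hold them in the other 9.

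Without mir-26a-1 and mir-26a-2 the differences of mir-125b-2 and mir-125a were no longer called, a setting chosen after seeing the data. These hairpins held ranks 3 and 4 in every WT library and ranks below 4 in the others, so leaving them out had to shrink these differences. The part of the mir-26a hairpins in the differences was not tested. mir-125b-2 then had ranks 3, 4 and 4 in WT and 3 or 4 elsewhere, and its difference was 0.455 in WT + EtOH against WT (adjusted p = 0.722 from limma). In TLR4-KO against WT it was 0, and with ethanol in these mice 0.227. mir-125a then differed by 0.856 (adjusted p = 1 from limma), 1.31 (adjusted p = 0.940) and 1.08 (adjusted p = 1). The difference of the ethanol effects became −0.227 for mir-125b-2 and −1.08 for mir-125a, each with an adjusted p = 1 from limma.

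Both mir-26a hairpins ranked above mir-351 in every library, so leaving them out was bound to change its differences little and is no check of them. The contrasts of mir-351 with WT kept their calls without the mir-26a hairpins, while its difference of the ethanol effects was −9.94 and no longer called (adjusted p = 0.0718 from limma). Its differences from WT were then 7.93 in WT + EtOH (adjusted p = 0.0313 from limma), 8.65 in TLR4-KO (adjusted p = 0.0136) and 6.65 in TLR4-KO + EtOH (adjusted p = 0.0471). Its WT ranks were 69, 77 and 81. The WT + EtOH ranks were 58, 62 and 58, the TLR4-KO ranks 57, 61 and 56, and the TLR4-KO + EtOH ranks 61, 62 and 62. Tested as ranks, it gained 16.3 places in WT + EtOH (adjusted p = 0.0682 from limma), 17.7 in TLR4-KO (adjusted p = 0.0323) and 14 in TLR4-KO + EtOH (adjusted p = 0.132), so that only the TLR4-KO call held.

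The number of precursors above 0 varied with the replicate number as well as with the group, and was highest in replicate 1 of each group. Its part was not tested as a term. In replicate 1 of the 3 groups other than WT, 270, 262 and 262 precursors were above 0, as many as in the WT libraries. In those 3 libraries mir-125b-2 was at 115.5, mir-125a at 114.9 and mir-351 at 64.6, 65.1 and 63.0. These values were above the WT range, like those of the remaining libraries outside WT. mir-125b-1 was at 101.4, 110.4 and 107.8 in the same order. The first of these values, from WT + EtOH, was below its WT range, and the others were above it.

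Of the 2 copies of mir-125b only mir-125b-2 was called, and whether the copies differed in their change was not tested. Averaged into 1 value per library, they differed from WT by 3.21 in WT + EtOH (adjusted p = 0.243 from limma), by 4.52 in TLR4-KO (adjusted p = 0.0806) and by 4.18 in TLR4-KO + EtOH (adjusted p = 0.147), and none of these was called. Without replicate 1 of WT + EtOH the difference of mir-125b-1 between WT + EtOH and WT was 4.31, close to that of mir-125b-2, and leaving out each library in turn gave adjusted p values from 0.18 to 1 in limma.

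The genomic neighbours of the members were followed in the same contrasts. Of 12 listed hairpins, 11 had a row, mir-99b was not analysed here, 5 of the mir-351 cluster (mir-503, mir-542, mir-450a-1, mir-450a-2 and mir-450b) were at 0 in all 12 libraries, and 5 were above 0 in all. In none of the 6 contrasts did limma call a neighbour. With so few neighbours this is near the share of all precursors, 1.7% in WT + EtOH minus WT, and the 5 at 0 could not be called. mir-100 in WT + EtOH minus WT was the 1 neighbour with an unadjusted p under 0.05.

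mir-100, beside mir-125b-1, had values of 76.8, 78.0 and 76.8 in WT and 94.6, 83.7 and 80.6 in WT + EtOH, a difference of 9.13 (standard error 3.39, adjusted p = 0.267 from limma) without overlap. mir-322, beside mir-351, had values of 21.7, 19.5 and 17.6 in WT and 2.7, 0 and 11.3 in WT + EtOH, a difference of −14.9 (standard error 7.51, adjusted p = 0.524 from limma). Its direction was the opposite of that of mir-351, again without overlap, and over the 12 libraries it ranged from 0 to 32.3. mir-99a, beside mir-125b-2, stayed between 53.9 and 61.0, and let-7e, beside mir-125a, between 70.6 and 83.3, with overlapping groups. let-7c-1 and let-7a-2 lay at 100.2 to 107.8 and 93.7 to 110.4, and their WT values lay within those of WT + EtOH.

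**Figure D4:**
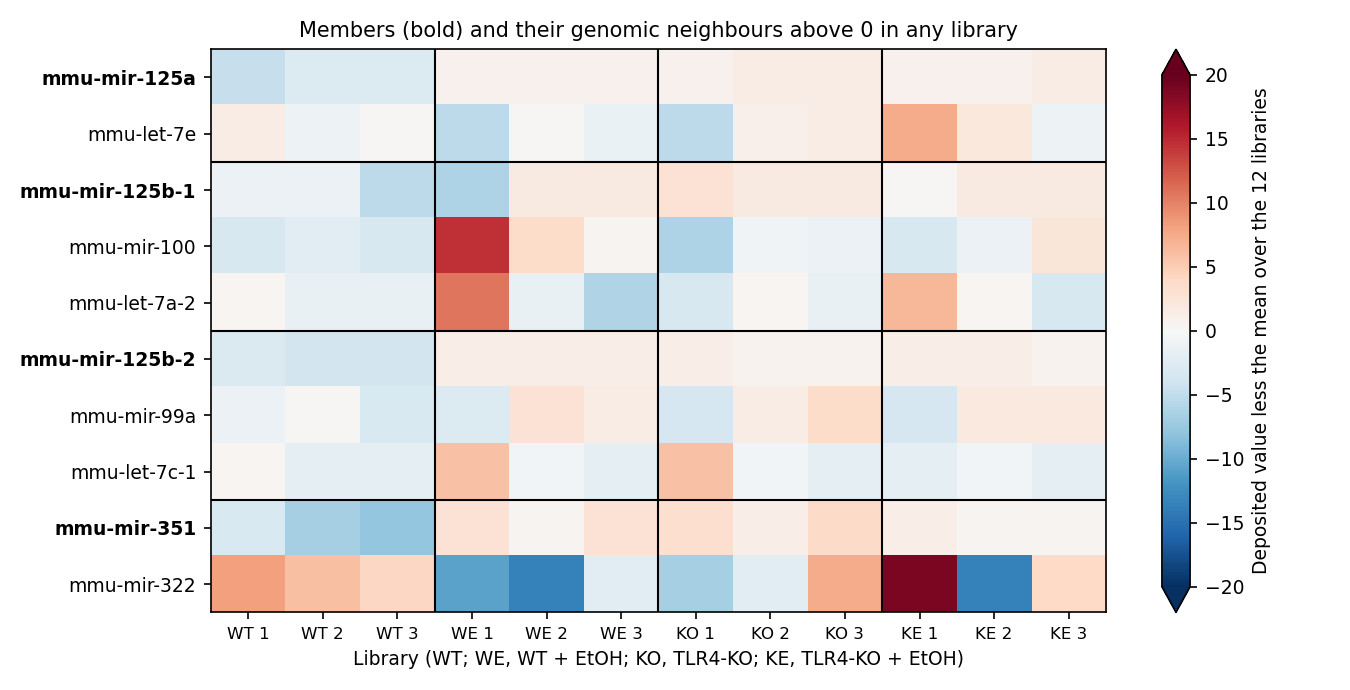
Deposited value less the mean over the 12 libraries (colour, red above and blue below the mean) of the 4 members, in bold, and of the 6 genomic neighbours above 0 in any library, with libraries in columns by group. The WT columns are blue for the 4 members, and mir-322 is red there.

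Some precursors outside the loci followed the members closely. Among 186 other precursors above 0 in all 12 libraries, the highest Pearson correlations over the 12 libraries were 0.914 for mir-7224 and 0.90005 for mir-128-1 with mir-125b-2, and 0.872 for both mir-181c and mir-423 with mir-125a. mir-351 was most like mir-128-1 (0.902) and mir-150 (0.859). mir-125b-1 was most like mir-346 (0.775). By Spearman correlation the 3 most similar precursors were the same for mir-125a, 1 of 3 was shared for mir-125b-1 and mir-351, and none for mir-125b-2. mir-451a and mir-451b, which had the same values in every library, were the most unlike mir-125b-2 (−0.911 each) and mir-125a (−0.873 each). These correlations describe libraries that share one scale and in which WT stands apart, and the 12 libraries are in 4 groups.

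Over the 4 groups at once, the moderated F test of limma called 14 of 589 precursors (2.38%), with 3 of the members among them. The adjusted p was 7.96e-05 for mir-125b-2, 0.0055 for mir-125a, 0.0228 for mir-351 and 0.801 for mir-125b-1 (limma).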

How the data were processed

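The authors trimmed adapters with Cutadapt, checked reads with FastQC 0.11.6 and mapped them with Bowtie2 2.2.5 and TopHat to non-coding RNA databases, with GRCm38 named in the submitters' processing notes. They counted reads per precursor and named the trimmed mean of M values as normalisation. The deposited unit is a score: a normalised value per precursor, 0 to 135, with equal values at ranks 1 to 14 in all libraries. How it was computed, how reads with several origins were shared and the miRBase release are not given in the sources used here. The deposited table holds no counts, so depth per library was not analysed here and no count model was run.

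The 589 rows were fitted with R 4.3.3 and limma 3.58.1 at default settings, with 1 mean per group over all 12 libraries, Benjamini-Hochberg adjustment over all rows and a threshold of 0.05; the total degrees of freedom were 8.31. Exact permutation tests used scipy 1.17.1 in Python 3.11.15. The fit was tested on simulated data with independent normal errors, which lacked the shared values of the top ranks. That test therefore does not cover the calls of mir-125b-2 and mir-125a. Named were the members, their genomic neighbours, the precursors with the 10 highest means and, for each member, the 3 with the highest Pearson correlation. mir-150 and mir-451a are from the marker lists, and mir-451b ties with mir-451a. Members and lists were chosen with earlier results of these data known. Alternatives were ranks, renormalisation, centring, filters on low values, other variance estimates, a replicate block, averaged mir-125b copies and each library left out.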

Additional observations from a re-analysis of the deposited data

Results flagged for a closer look

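The limma contrast of the ethanol effects (TLR4-KO less WT) was called for 3 members. The difference was −4.56 for mir-125b-2, −4.43 for mir-125a and −9.93 for mir-351. In each case all 3 WT + EtOH libraries were above all 3 WT libraries, and TLR4-KO and TLR4-KO + EtOH overlapped. Without the mir-26a hairpins these values were −0.227, −1.08 and −9.94, and none was called (adjusted p = 1, 1 and 0.0718 from limma). mir-125b-2 and mir-125a held ranks 3 and 4 in TLR4-KO on water, so ethanol could barely raise them there. With 1 library left out, the contrast was called in 12 of 12 fits for mir-125b-2, in 6 for mir-125a and in 1 for mir-351.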

How the results depend on the processing

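3 members were called in each contrast with WT and in the difference of the ethanol effects, and 0 in the other 2 contrasts. Tested as ranks, 0 were called in WT + EtOH against WT, 1 in TLR4-KO against WT, 0 in TLR4-KO + EtOH against WT and 0 in the difference of the effects. With only the groups compared in the fit, or without the mir-26a hairpins, 1 was called in each contrast with WT, and without these hairpins 0 in the difference of the effects. In TLR4-KO + EtOH against WT, 0 were called after centring on miR-181a and miR-181b or with precursors above 0 in at least 3 libraries, and in the difference of the effects 1 was called with that filter or with precursors above 0 in all 12. The cause of the lost calls was not tested for any of these settings. Leaving out each library in turn gave 2 to 3 members in WT + EtOH against WT, 3 to 3 in TLR4-KO against WT, 2 to 3 in TLR4-KO + EtOH against WT, 1 to 3 in the difference of the effects and 0 to 0 in the others. The difference of the effects had 1 member without replicate 2 or 3 of WT + EtOH or of TLR4-KO, or without replicate 1 or 2 of TLR4-KO + EtOH. Differences that changed sign were small ones that were never called: mir-125b-2 between TLR4-KO + EtOH and TLR4-KO (−0.730 centred, −0.339 with copies averaged), mir-125a between TLR4-KO + EtOH and WT + EtOH (−0.982 centred), and in the same contrast mir-125b-2 (0.967 with copies averaged) and mir-125b-1 (−0.521 to 3.47 with 1 library left out). Deviations of same-numbered libraries correlated weakly (18 pairs, r from −0.109 to 0.153, median 0.113, against a median of −0.0376 for 36 other pairs), and 8 of 12 libraries were closest to their own number, a hint of pairing in the data. Not every pair was above 0.1, so they were not taken as pairs. With the replicate number as a block, mir-351 lost its call in the difference of the effects (−9.93, adjusted p = 0.0565 from limma), and over all precursors the calls went from 15 to 24 in TLR4-KO against WT, from 11 to 19 in TLR4-KO + EtOH against WT and from 7 to 3 in the difference of the effects. Without replicate 1 of every group, chosen after seeing the data, mir-351 had an adjusted p = 0.0535 in TLR4-KO + EtOH against WT and 0.0853 in the difference of the effects (limma).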
